A study of Bos taurus with 18 samples.

Results

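The genes described here encode the insulin-like growth factor (IGF) ligands IGF1 and IGF2, the receptors IGF1R and IGF2R, and the binding proteins IGFBP2 to IGFBP7. They were chosen by symbol, and all 10 listed symbols were found among the 16989 genes counted. They were measured in 18 libraries of poly-adenylated RNA from bovine bone marrow-derived mesenchymal stem cells (MSCs) of 1 juvenile donor. Of these, 17 came from clonal populations (clones A to Q), each grown from a single cell, and 1 came from a heterogeneous population (Het) of many unsorted cells of the same donor. All cells were undifferentiated, and they were taken at the first passage from monolayer culture on tissue culture plastic in DMEM with serum and antibiotics. No TGFβ had been given, each clone was sequenced once, and all libraries share 1 animal, so the p-values below measure the spread between the clones of this donor and not between animals.

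IGF1 and IGF2 are secreted growth factors that act mainly through IGF1R, a tyrosine kinase receptor that is related to the insulin receptor. IGF2R, which is also the cation-independent mannose 6-phosphate receptor, takes up IGF2 and carries lysosomal enzymes to the lysosome. The binding proteins hold IGFs outside the cell and can either block or prolong their action, and proteases such as pappalysin release the ligand by cutting them. In cartilage, IGF1 is known as a signal for growth and for the synthesis of matrix that is rich in aggrecan.

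Libraries held between 11484812 and 18458157 reads on genes in the clones and 16092501 in Het, and levels are given as TMM-scaled CPM, that is, reads scaled to a common number of reads on genes after correction of the library size by the trimmed mean of M-values. CPM is not corrected for gene length, so levels are compared between libraries for 1 gene and never between genes. Clone N lay farthest from the median profile of the clones, with a root mean square difference of 0.72 log2 units over 10699 genes against 0.33 to 0.65 in the other clones and 0.60 in Het. The closest libraries, clones C and O, still differed by more than sampling noise (mean chi-square of 5.79 per gene, where counting error alone gives about 1). The MSC surface genes THY1 (212 to 589 CPM), ENG (137 to 291 CPM) and CD44 (172 to 550 CPM) were read in every clone, whereas LEPR had at most 2 reads and VCAM1 at most 47. Of 16 macrophage genes, all 16 were higher in Het than in every clone, with a summed level of 327 CPM against 16.5 to 99.0 CPM in the clones. The margins were uneven. CD163 had 667 reads in Het against at most 12 in a clone, whereas C1QB had 1 read against 0, and CTSS stood at 90.6 CPM against at most 85.9 CPM. In bulk RNA, a change in the number of cells of one kind and a change in RNA per cell cannot be told apart.

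RNA of the ligands was scarce in these undifferentiated cells. IGF1 had 0 reads in 12 of the 17 clones, 1 read in clones B, E and G, 2 in clone H and 3 in clone M. All of these are at or under the 3 reads that a count of 0 allows, which corresponds to 0.170 to 0.273 TMM-scaled CPM in the clones. Het had 5 IGF1 reads (0.328 CPM, exact Poisson 95% interval 0.107 to 0.766). Over the clones together the count was 8 reads, which gave a ratio of 10.3 for Het over the clones (exact 95% interval 2.64 to 35.6, counting error only). Too few reads were present for a test of IGF1 across genes. The macrophage genes were also highest in Het, and their part in the IGF1 count was not tested.

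IGF2 was counted at 0 to 20 reads per clone, with a median of 0.292 CPM. Clones E and I had 0 reads and clone H had the most, at 1.19 CPM (interval 0.724 to 1.83). Het stood above all 17 clones with 39 reads, or 2.56 CPM (interval 1.82 to 3.5), and its interval overlapped narrowly with that of clone H. The ratio of Het to the clones together was 6.68 (exact 95% interval 4.48 to 9.78, counting error only). In edgeR's quasi-likelihood test, which takes the spread between clones into account, the log2 difference was 2.73 (SE 0.85, adjusted p = 0.255). limma-voom gave 3.09 (adjusted p = 0.0306), so the call for IGF2 depends on the tool. Apart from clone H and Het, each IGF2 level rested on 11 reads or fewer, and no comparison between those clones was attempted.

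The receptors had the smallest spread of the 8 family genes with 10 or more reads in every clone. IGF1R, the signalling receptor, ran from 152 CPM in clone M through a median of 221 CPM to 290 CPM in clone D, a 1.91-fold range. Clones D, K and A were the highest (290, 289 and 279 CPM, with overlapping counting intervals) and clones M, Q and P the lowest (152, 160 and 176 CPM). The SD of IGF1R was 0.29 log2 units (n = 17 clones), below the median of 0.32 over 11459 expressed genes (more than 1 CPM in some clone), and 42.0% of these genes varied less. IGF1R was the only one of the 9 family genes in that set whose SD did not exceed the median gene. This count includes IGF2, whose SD of 0.65 log2 units rested on 0 to 20 reads per clone. With a pseudocount of 1 CPM the SD of IGF2 was 0.28, and 7 of the 9 genes were above the median gene. The level of IGF1R was lower in clones with more reads on genes (Pearson r = -0.702, permutation p = 0.00164; Spearman rho = -0.630, p = 0.00837), and the part of depth in its spread was not tested.

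IGF2R ran from 230 CPM in clone I through a median of 392 CPM to 634 CPM in clone D (SD 0.41 log2 units, n = 17). Clones K and Q followed clone D at 526 and 520 CPM, and clones G and L lay near clone I at 246 and 248 CPM. Het held 772 CPM, above all 17 clones and 1.98-fold over their fitted mean. This excess did not pass the test (log2 difference 0.98, SE 0.37, p = 0.0145, adjusted p = 0.474 by edgeR).

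The binding proteins differed far more between clones than the receptors. Their SDs were 0.67 log2 units for IGFBP6, 0.79 for IGFBP4, 0.91 for IGFBP3, 0.95 for IGFBP2, 1.30 for IGFBP7 and 1.44 for IGFBP5 (n = 17 clones for each). Those of IGFBP7 and IGFBP5 were larger than in 97.4% and 98.6% of the expressed genes. For comparison, MKI67, a marker of cycling cells, had an SD of 1.43 and ACAN, which encodes aggrecan, had 2.11.

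**Figure D1:**
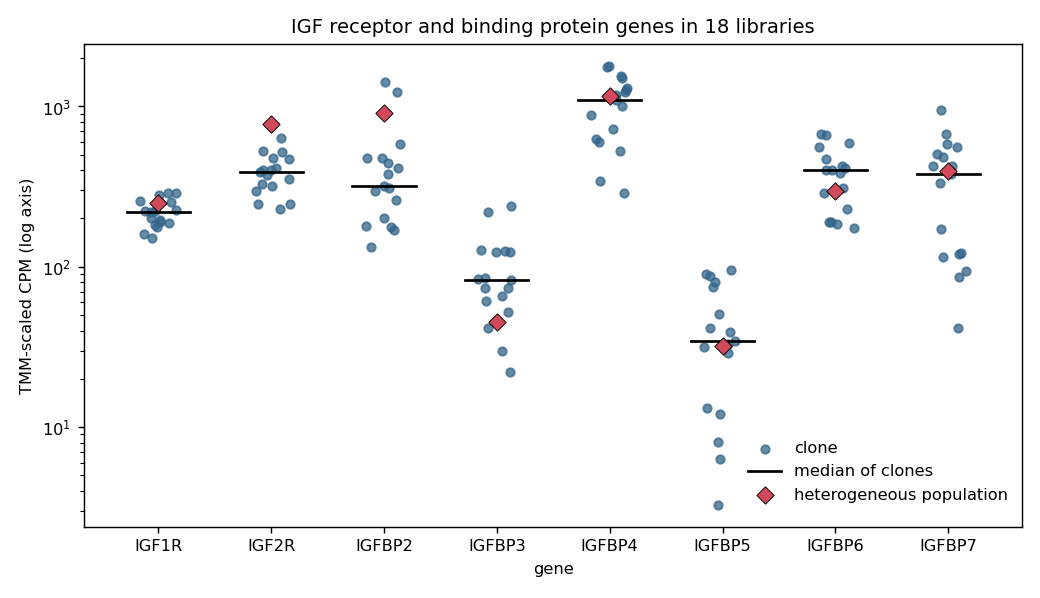
Levels of the 8 family genes with 10 or more reads in every clone, as TMM-scaled CPM on a log axis. Circles are the 17 clones (spread sideways for clarity), black lines their medians and diamonds the heterogeneous population. IGFBP5 spans 3.27 to 95 CPM and IGF1R 152 to 290 CPM, and the diamond lies above every clone for IGF2R.

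IGFBP5, a binding protein that also attaches to extracellular matrix, had the widest range, from 3.27 CPM in clone N through a median of 34.5 CPM to 95 CPM in clone O, which is 29.0-fold. High levels were found in clones O, A, C, E and J (95, 90.5, 88.1, 80.8 and 74.7 CPM). At the other end, clones N, Q, D, K and L held 3.27, 6.33, 8.03, 12.1 and 13.1 CPM. Clone N rested on 50 reads (exact Poisson interval 2.43 to 4.32 CPM), which does not reach the interval of clone Q (5.11 to 7.74 CPM), whereas those of clones Q and D overlapped (6.46 to 9.87 CPM for clone D), as did those of clones K and L. All these intervals cover counting error only. Without clone N, the SD of IGFBP5 was 1.24.

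IGFBP7, a secreted protein of low IGF affinity that is also known as a matrix and vessel-associated factor, ran from 41.3 CPM in clone Q through a median of 377 CPM to 950 CPM in clone K, or 23.0-fold. The widest gap in its log2 levels set only clone Q apart. The clones were therefore parted at the next gap, of 0.96 log2 units, after the values were seen. In 10 clones (A, B, D, E, F, H, I, J, K and M) the levels lay between 333 and 950 CPM, and in the other 7 (C, G, L, N, O, P and Q) between 41.3 and 172 CPM. Het, at 397 CPM, was within the upper range.

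IGFBP2, which is abundant in fetal serum and in many progenitor cells, ran from 133 CPM in clone O through a median of 320 CPM to 1430 CPM in clone D. Clones D and K (1430 and 1230 CPM) were well above clone B, the next at 587 CPM. The same clones D and K were among the lowest for IGFBP5. Het, at 904 CPM, was higher than 15 of the 17 clones.

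IGFBP3, the main IGF carrier in blood and a protein that many fibroblast-like cells secrete, ran from 21.9 CPM in clone N through a median of 83.2 CPM to 241 CPM in clone H. Clones H and J (241 and 219 CPM) stood apart from the next, clones E, M, I and F at 123 to 127 CPM. Only clones N, Q and O (21.9, 29.8 and 41.6 CPM) were lower than Het, which had 45 CPM.

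IGFBP4, which blocks IGF action until pappalysin cuts it, ran from 290 CPM in clone L through a median of 1100 CPM to 1790 CPM in clone D. Clones D and F (1790 and 1770 CPM) had overlapping counting intervals, and clones L and N (290 and 342 CPM) were lowest, separated from clone O at 529 CPM. IGFBP6, which prefers IGF2 over IGF1, ran from 174 CPM in clone G through a median of 404 CPM to 673 CPM in clone N, with clone H at 667 CPM. Clone N, the lowest clone for IGFBP3 and IGFBP5, was thus the highest for IGFBP6, although the counting intervals of clones N and H overlapped.

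**Figure D2:**
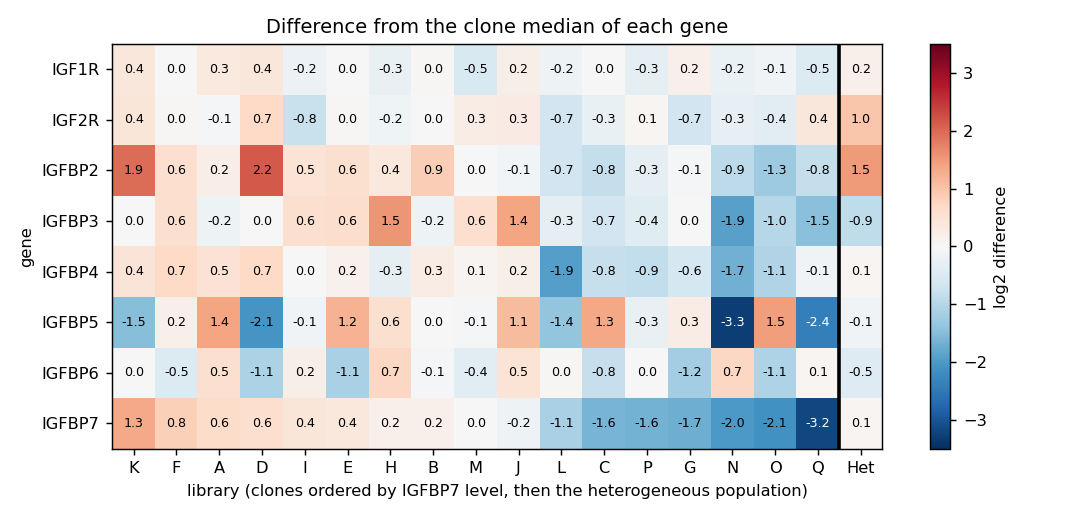
Difference of each library from the clone median of the same gene, in log2 units (colour scale and printed values), with clones ordered by IGFBP7 level and the heterogeneous population (Het) at the right of the black line. Clones on the left, such as K and F, are above the median for IGFBP2, IGFBP4 and IGFBP7, and the 7 clones from L to Q are 1.1 or more below it for IGFBP7, while IGFBP5 and IGFBP6 do not follow that order.

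In the comparison of Het with the clones, which the sample labels define, 0 of the 9 family genes tested had an adjusted p under 0.05 by edgeR, where 145 of 11878 genes (1.22%) did, 1.21% higher and 0.00842% lower in Het. At an unadjusted p under 0.05 there were 2 family genes, IGF2 and IGF2R, where 912 of all genes (7.68%) met that level. DESeq2 called 0 (87 of all genes) and limma-voom called 1, IGF2 (216 of all genes). The largest shifts after IGF2 were those of IGFBP3 (log2 -1.09, SE 0.94, adjusted p = 0.784), IGFBP2 (1.04, SE 0.86, adjusted p = 0.770) and IGF2R. IGF1R, IGFBP4 and IGFBP7 lay within 0.20 log2 units of the clones. The single Het library was assumed to vary as the clones do, so only differences that were large beside the clone spread could pass.

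It was next asked which family genes varied together between clones. For each of the 8 genes with 10 or more reads in every clone, a slope of every other gene on its log2 level was fitted over the 17 clones with edgeR, and a pair of family genes was called where both fits, each adjusted across all genes tested, gave a p under 0.05. Of 28 pairs, 4 were called both ways: IGFBP2 with IGFBP7, IGFBP2 with IGFBP4, IGFBP4 with IGFBP7, and IGF2R with IGFBP4. All 4 were positive. Each must be read beside the share of all genes that passed with the same slope variable, which was 12.4% for IGFBP2 (6.09% with a positive and 6.3% with a negative slope), 15.8% for IGFBP7 (7.65% and 8.19%), 26.5% for IGFBP4 (12.6% and 13.9%) and 22.1% for IGF2R (10.4% and 11.8%). It was lower for IGFBP5, at 9.36% (3.79% and 5.57%), IGFBP3, at 0.85% (0.222% and 0.628%), IGFBP6, at 0.483% (0.377% and 0.106%), and IGF1R, at 0.0193%. These shares do not ask for both directions, and no share of pairs called both ways was computed over all genes. By correlation of log2 CPM, 21 of 28 pairs had a positive r and 10 had an unadjusted permutation p under 0.05 (4 when CPM was scaled by the total count alone). No share of such pairs was computed over all genes either, so these counts do not show a relation particular to the family. Of 10698 other genes with a mean above 1 CPM, 49 had a higher r with IGFBP2 than IGFBP7 did. At the other end of these 10 pairs, 1838 had a higher r with IGF2R than IGFBP2 did.

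IGFBP2 and IGFBP7 gave the closest relation. Clones K and D were among the highest for both and clones O, N and Q among the lowest. The slope of IGFBP7 was 1.15 per log2 unit of IGFBP2 (SE 0.20, adjusted p = 0.0038 by edgeR), and in the opposite direction the slope was 0.63 (SE 0.10, adjusted p = 0.00173). Pearson r was 0.822 (permutation p = 7e-05) and rho 0.880 (p = 2e-05), with r = 0.859 (permutation p = 6e-05) without clones D and K, the farthest from the median of IGFBP2. Leaving out each clone in turn kept r between 0.791 and 0.861. Within the 10 clones of the upper IGFBP7 range r was 0.671 (permutation p = 0.036) and rho 0.600 (p = 0.0736).

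IGFBP4 followed both of these. Its slope was 0.58 per log2 unit of IGFBP2 (SE 0.14, adjusted p = 0.0176 by edgeR; r = 0.739, permutation p = 0.00072; rho = 0.821, p = 0.00012; r = 0.737 without clones D and K). On IGFBP7 its slope was 0.36 (SE 0.10, adjusted p = 0.0198 by edgeR; r = 0.705, permutation p = 0.00151; rho = 0.792, p = 0.00029; r = 0.770 without clones L and N). Clone Q departed from this pattern, with IGFBP7 at 41.3 CPM and IGFBP4 at 1010 CPM. Leaving out each clone in turn kept r of IGFBP4 and IGFBP7 between 0.672 (without clone N) and 0.855 (without clone Q). Within the 10 clones of the upper IGFBP7 range that r was 0.571 (permutation p = 0.0829). Of 10698 other genes with a mean above 1 CPM, 566 had a higher r with IGFBP4 than IGFBP2 did, and 714 than IGFBP7 did. With IGFBP2 and with IGFBP7, 217 and 425 genes had a higher r than IGFBP4 did. For IGFBP2 and IGFBP7 with each other these numbers were 49 and 80, and for IGF2R and IGFBP4 they were 1026 and 1202.

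The share of reads outside genes ran from 18.78% to 26.81% of a clone's reads and moved with several of these genes. It was lower where IGFBP4 was higher (r = -0.791, permutation p = 0.00026; rho = -0.694, p = 0.00264), and also with IGFBP5 (r = -0.598, permutation p = 0.0112; rho = -0.439, p = 0.081), IGF2R (r = -0.506, permutation p = 0.0365; rho = -0.512, p = 0.0377), IGFBP3 (r = -0.487, permutation p = 0.0487; rho = -0.407, p = 0.106) and IGFBP7 (r = -0.501, permutation p = 0.0372; rho = -0.498, p = 0.044). With this share as a covariate, a fit added after the data were seen, the slopes between IGFBP2 and IGFBP7 were 1.02 and 0.61 (adjusted p = 0.0155 and 0.0125 by edgeR), and IGFBP4 on IGFBP2 was 0.40 (adjusted p = 0.0374). IGFBP4 on IGFBP7 fell to 0.22 (adjusted p = 0.124), and IGFBP4 on IGF2R from 0.99 (adjusted p = 0.0499) to 0.48 (adjusted p = 0.216), so neither of those 2 pairs was called both ways in that fit. In the opposite direction IGFBP7 on IGFBP4 went from 1.09 to 1.43 (adjusted p = 0.0229) and IGF2R on IGFBP4 stayed at 0.33 (adjusted p = 0.152).

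IGF2R and IGFBP4 had r = 0.616 (permutation p = 0.00834), rho = 0.613 (p = 0.0102) and r = 0.694 without clones D and I (r = 0.451, permutation p = 0.0691, when CPM was scaled by the total count alone), but their call was lost with 11 of the 17 clones left out singly (adjusted p up to 0.121, without clone L). IGFBP3 and IGFBP7 had r = 0.698 (permutation p = 0.00162), rho = 0.630 (p = 0.00748) and r = 0.702 without clones H and N, and passed in 1 direction only by edgeR and in both by DESeq2 and limma-voom. Within the 10 clones of the upper IGFBP7 range r was -0.547 (permutation p = 0.101), so the positive relation was not seen there. IGFBP6 was called with no other family gene. IGFBP5 was called with none without the covariate, where its slope on IGF2R was -0.82 (SE 0.92, adjusted p = 0.546), and with IGF2R in the covariate fit (slopes -2.63 and -0.23, adjusted p = 0.00604 and 0.00725 by edgeR). The r of IGFBP5 with IGFBP2 was -0.123 (permutation p = 0.643) and that of IGFBP6 with the 7 others lay between -0.252 and 0.0807.

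**Figure D3:**
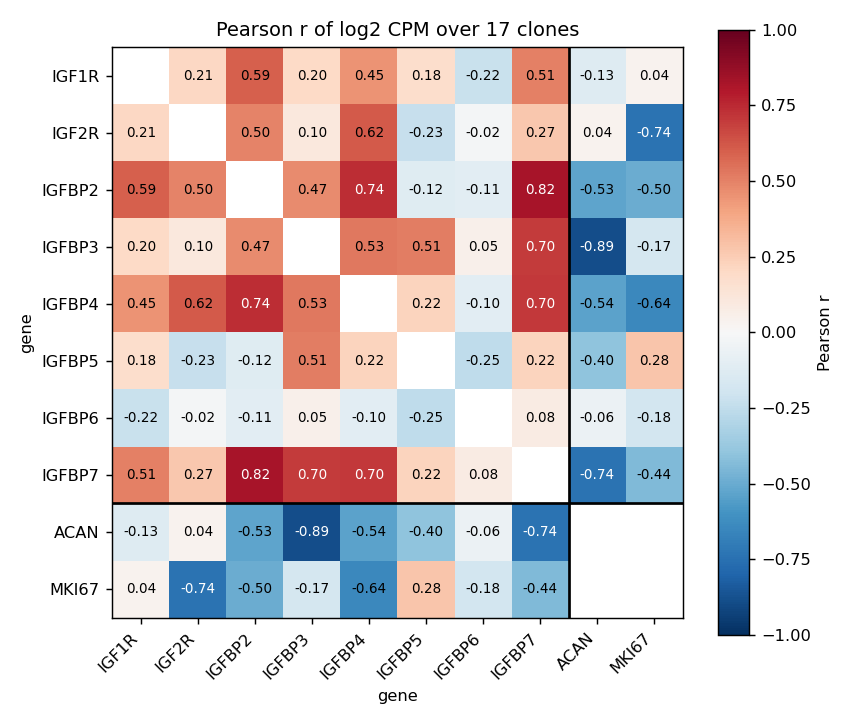
Pearson r of log2 CPM over the 17 clones for each pair of the 8 family genes, and of each with ACAN and MKI67 (beyond the black lines), on a colour scale from -1 to 1 with the values printed. IGFBP2, IGFBP4 and IGFBP7 have r from 0.705 to 0.822 with each other, IGFBP6 is near 0 with most others, and the strongest value is that of IGFBP3 with ACAN, -0.888.

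The study asked whether RNA of undifferentiated clones is linked to cartilage potential, with aggrecan as its central marker, and the family was therefore also set beside ACAN and, as a measure of cycling, MKI67 (16 relations). The study measured potential as glycosaminoglycan per DNA in pellets later grown from the clones. It reported only a weak and negative association of aggrecan RNA with that measure. Pellet values were not examined here, so ACAN does not stand for potential below. Over the 17 clones 2 of the 8 family genes, IGFBP3 and IGFBP7, had a slope on ACAN with an adjusted p under 0.05, where 4.58% of 10350 genes did (2.53% with a positive and 2.05% with a negative slope). Both were lower where ACAN was higher.

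IGFBP3 fell with ACAN across the whole range of clones. Clone N had the most ACAN (2730 CPM) and the least IGFBP3 (21.9 CPM), and clone H had the least ACAN (18.4 CPM) and the most IGFBP3 (241 CPM). All 5 clones with ACAN at 748 CPM or more (C, N, O, P and Q) had less IGFBP3, at most 61.4 CPM, than any of the other 12 clones, at least 65.8 CPM. That split was narrow, because the counting intervals of clone P (57.8 to 65.2 CPM) and clone L (61.9 to 69.8 CPM) overlapped. The slope of IGFBP3 was -0.39 per log2 unit of ACAN (SE 0.05, adjusted p = 0.00118 by edgeR), rank 9 by p among the 10350 genes. Pearson r was -0.888 (permutation p = 1e-05, the smallest that 100000 resamples can give) and rho was -0.860 (p = 4e-05). Without clones N and O, the farthest from the median of ACAN, r was -0.831 (permutation p = 0.00012), and within the 12 clones with less ACAN it was -0.676 (permutation p = 0.0156; rho = -0.608, p = 0.0401).

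Of 10698 other genes with a mean above 1 CPM, ACAN had the lowest r with IGFBP3, and 2 genes had a lower r with ACAN than IGFBP3 did. With each clone left out in turn the slope of IGFBP3 stayed between -0.40 and -0.36 with an adjusted p of at most 0.0095 by edgeR, and it was -0.36 (adjusted p = 0.004) with the share of reads outside genes as a covariate. In the opposite fit, the slope of ACAN on IGFBP3 was -1.89 (SE 0.25, adjusted p = 0.00652 by edgeR). Its size held without clone N, at -1.90, but the adjusted p was then 0.101, and it was 0.104 with the covariate (slope -2). Het did not lie on this line: its ACAN was 56.0 CPM and its IGFBP3 45 CPM, lower than in each of the 12 clones with ACAN of 302 CPM or less.

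IGFBP7 was also lower in clones with more ACAN. Its slope was -0.46 (SE 0.12, adjusted p = 0.0382 by edgeR; r = -0.740, permutation p = 0.00086; rho = -0.569, p = 0.0188; r = -0.667 without clones N and O). The 5 clones with high ACAN all had IGFBP7 of 122 CPM or less, but among the other 12 clones r was -0.0929 (permutation p = 0.776). Those 12 clones cover a narrower range of ACAN, and whether the relation differs in form from that of IGFBP3 was not tested. The call was lost with 10 of the 17 clones left out singly, among them clone N (adjusted p = 0.107), and with the covariate (adjusted p = 0.148), while the slope stayed between -0.52 and -0.40 and at -0.37. IGFBP2 and IGFBP4 had r of -0.529 and -0.535 with ACAN (permutation p = 0.028 and 0.0267; rho = -0.635 and -0.412, p = 0.00744 and 0.101), and -0.356 and -0.312 without clones N and O. Their slopes on ACAN did not pass, but the opposite slope of ACAN on IGFBP4 did (-1.59, SE 0.48, adjusted p = 0.0225 by edgeR; 0.0973 without clone N). IGF2R, IGF1R and IGFBP6 had r of 0.0371, -0.126 and -0.0617 with ACAN (permutation p = 0.887, 0.625 and 0.813). Among the 12 clones with less ACAN, IGF1R was higher where ACAN was higher (r = 0.635, permutation p = 0.0263; rho = 0.734, p = 0.0086), a relation that the 5 other clones, at 160 to 224 CPM of IGF1R, did not continue.

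**Figure D4:**
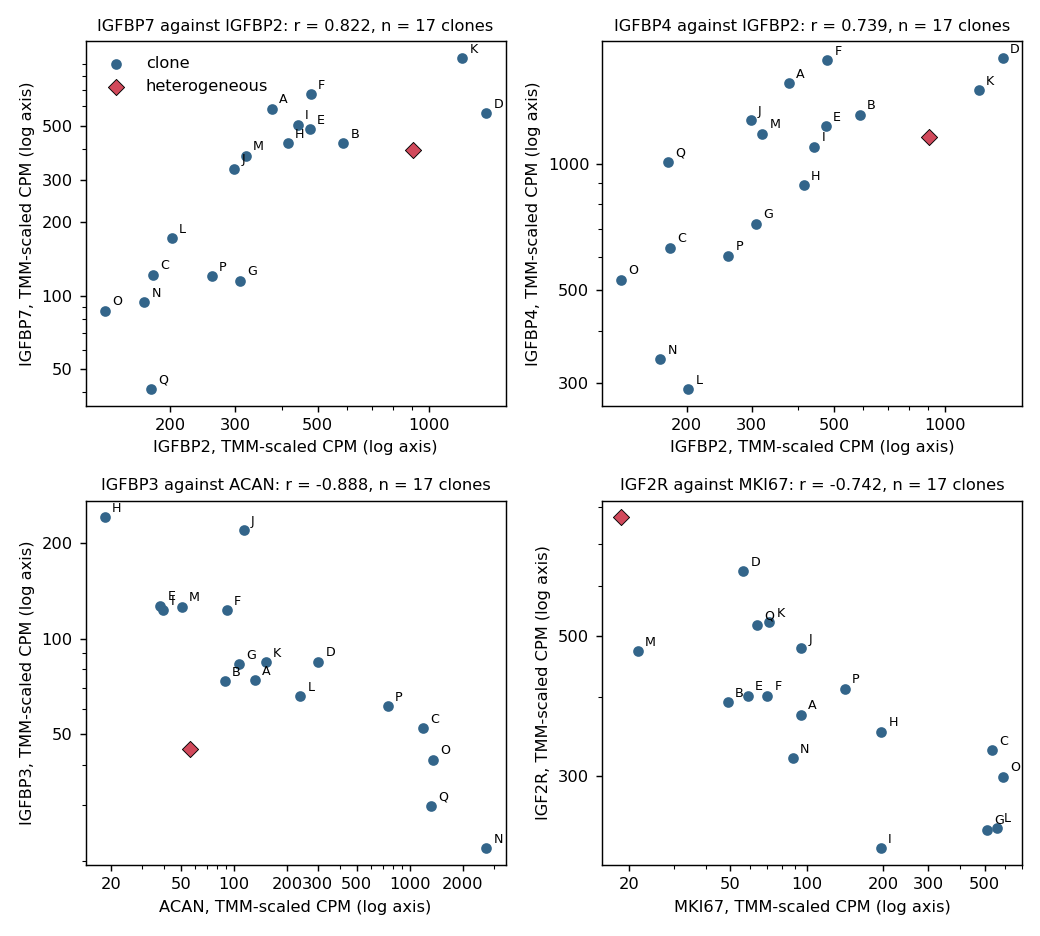
Levels of pairs of genes by library, as TMM-scaled CPM on log axes, with circles and letters for the 17 clones and a diamond for the heterogeneous population (r over the clones only). IGFBP7 and IGFBP4 rise with IGFBP2, IGFBP3 falls as ACAN rises with the diamond below the clones of like ACAN, and IGF2R falls with MKI67 (clone I is lowest at 230 CPM), with the diamond at the upper left.

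With MKI67 as the slope variable, 3 of the 8 family genes passed, IGF2R, IGFBP4 and IGFBP2, where 38.8% of the 10350 genes passed as well (19.2% with a positive and 19.6% with a negative slope), so the share of family genes is near that of all genes. IGF2R was lower where MKI67 was higher (slope -0.22, SE 0.05, adjusted p = 0.00232 by edgeR; r = -0.742, permutation p = 0.00076; rho = -0.689, p = 0.00298; r = -0.680 without clones L and O). Clones C, G, L and O had MKI67 at 511 CPM or more and IGF2R between 246 and 329 CPM, and in the other 13 clones r was -0.580 (permutation p = 0.0391; rho = -0.456, p = 0.121). Het had the least MKI67 of all libraries, 18.6 CPM against 21.6 to 590 CPM in the clones, and the most IGF2R. IGFBP4 had a slope of -0.36 (SE 0.10, adjusted p = 0.00885) and IGFBP2 one of -0.43 (SE 0.15, adjusted p = 0.0345), and within the 13 clones their r was -0.311 and -0.140 (permutation p = 0.293 and 0.650). The IGFBP2 call was lost with the covariate (adjusted p = 0.142), with scaling by the total count alone (0.0694) and without clone C, D, L or O (adjusted p of at most 0.0994 by edgeR). IGF1R did not move with MKI67 beyond the clone spread (slope 0.00, SE 0.05, adjusted p = 0.961 by edgeR).

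**Figure D5:**
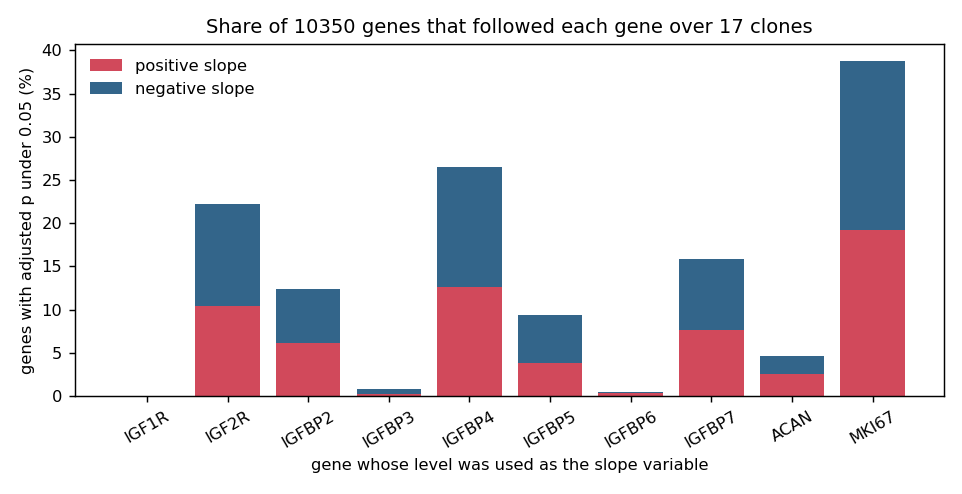
Percent of 10350 genes with an adjusted p under 0.05 in the edgeR slope on each named gene over 17 clones, split into positive and negative slopes. The bars reach 38.8% for MKI67 and 26.5% for IGFBP4, and stay under 1% for IGF1R, IGFBP3 and IGFBP6.

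The number of genes that passed with a given slope variable differed widely within the family. IGFBP4 (2744 genes), IGF2R (2291), IGFBP7 (1640) and IGFBP2 (1282) shared their pattern with many genes, IGFBP5 with 969, and IGFBP3 (88), IGFBP6 (50) and IGF1R (2) with few. For IGFBP5 that number was 23 without clone N, and for IGFBP3 and IGFBP6 it was 0. For IGF2R it was 1425 without clone G, for IGFBP2 393 without clone O, and for IGFBP7 957 without clone O and 2702 without clone Q. By Pearson r over the 17 clones, among the genes most like each were RFX2 and A4GALT for IGF1R (0.84 and 0.83), PYGO2 and L3HYPDH for IGF2R (0.92 and 0.91), FAM118A for IGFBP2 (0.93), CD248 and LIMD2 for IGFBP3 (0.85 and 0.84), WARS and NDUFA13 for IGFBP4 (0.96 and 0.95), HDLBP and PMM2 for IGFBP5 (0.94 and 0.91), C28H10orf54 and KANK2 for IGFBP6 (0.86 and 0.85), and SHROOM3 and ACTA2 for IGFBP7 (0.91 for each). These were among the highest of 10698 values and are a description only.

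Of 47 further genes of the IGF pathway, 45 were analysed, 42 had a read in some library and 38 counted as expressed. IGFBP1, INS (insulin) and AKT1 were listed at 0 reads in every library. AKT1 encodes a kinase that most cells use, and whether its 0 reflects absence of the RNA was not tested. The median SD of the 38 genes was 0.34 log2 units, against 0.32 over all expressed genes. In Het, 0 of 38 tested passed an adjusted p of 0.05 by edgeR (1.22% of all genes did), 5 had an unadjusted p under 0.05 (7.68% of all genes did), and DESeq2 and limma-voom called 0 each.

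The 6 pathway genes with the largest SD among those with a mean above 1 CPM were as follows. IGF2BP3, an RNA-binding protein that binds IGF2 messenger RNA, ran from 1.39 CPM in clone M to 27.8 CPM in clone K (SD 1.09, n = 17). STC2, a pappalysin inhibitor, ran from 2.52 CPM in clone L to 74.5 CPM in clone D (SD 1.07). PAPPA, the pappalysin that cuts IGFBP4, ran from 5.59 CPM in clone Q to 51.4 CPM in clone O (SD 0.86). PLAG1, a transcription factor known to act on IGF2, had 0.543 to 5.89 CPM (8 to 90 reads). IGFALS, the acid-labile subunit of the circulating IGF complex, had 0.196 to 3.5 CPM (3 to 59 reads). HTRA1, a secreted serine protease that can cut binding proteins, ran from 725 CPM in clone L to 2480 CPM in clone M (SD 0.60). Under that mean, PAPPA2, a second pappalysin (0 to 7.65 CPM, 0 to 135 reads, SD 1.48), and GRB14, a receptor adaptor (0 to 4.64 CPM, 0 to 77 reads, SD 1.15), had a larger SD than all 6. STC1 (0 to 1.21 CPM, 0 to 18 reads, SD 0.71) had a larger SD than HTRA1 only.

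PAPPA and HTRA1 both passed with IGF2R and IGFBP2, with opposite signs. HTRA1 was higher in clones with more IGFBP4 (slope 0.61, SE 0.12, adjusted p = 0.00149 by edgeR), IGFBP7 (0.39, SE 0.07, adjusted p = 0.00231), IGFBP2 (0.48, SE 0.11, adjusted p = 0.0163) and IGF2R (0.98, SE 0.28, adjusted p = 0.0189). PAPPA was lower in clones with more IGF2R (slope -1.53, SE 0.45, adjusted p = 0.0225 by edgeR) and IGFBP2 (-0.58, SE 0.18, adjusted p = 0.0472) and higher in those with more IGFBP5 (0.38, SE 0.11, adjusted p = 0.0428). On IGFBP4, its substrate, the slope of PAPPA was -0.58 (SE 0.24, adjusted p = 0.0764) and did not pass. Both genes also moved with MKI67, PAPPA upward (0.42, SE 0.09, adjusted p = 0.00222) and HTRA1 downward (-0.35, SE 0.06, adjusted p = 0.000274). CTSD, a lysosomal protease, had a slope of 1.13 on IGF2R (SE 0.19, adjusted p = 0.00132), 0.51 on IGFBP4 (SE 0.12, adjusted p = 0.00522) and -0.36 on MKI67 (SE 0.05, adjusted p = 2.05e-05). Other positive slopes on IGF2R by edgeR included those of the FOXO factors FOXO4 (1.08, SE 0.18, adjusted p = 0.00107) and FOXO3 (0.83, SE 0.15, adjusted p = 0.00164), and of LRP1 (0.57, SE 0.13, adjusted p = 0.00525). FOXO4 and FOXO3 were also lower where MKI67 was higher (slopes -0.31 and -0.17, adjusted p = 0.00112 and 0.0371 by edgeR). LRP1 did not pass with MKI67 (-0.10, adjusted p = 0.0971). Whether the slopes on IGF2R are separate from those on MKI67 was not tested. Of the 35 pathway genes tested, 6 passed with IGFBP4 as the slope variable (5 positive and 1 negative), 9 with IGF2R (7 and 2), 13 with MKI67 (4 and 9), 1 with ACAN (IGFALS, negative) and 0 with IGFBP3, IGFBP6 or IGF1R by edgeR. Of all genes, 26.5%, 22.1%, 38.8% and 4.58% passed with IGFBP4, IGF2R, MKI67 and ACAN, so these counts in either direction are near or below the background. With IGFBP2 and with IGFBP5, 3 of the 35 had a positive and 2 a negative slope, and with IGFBP7 3 and 1. The shares of all genes were 12.4%, 9.36% and 15.8%. The 7 positive slopes on IGF2R stand beside 10.4% of all genes, and no difference from the background was tested.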

How the data were processed

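The authors aligned single-end reads to bosTau7 with STAR (2.3.0e per the labels) and tallied reads per gene with HTSeq against the RefSeq annotation (release 103). The deposited values are raw read counts per gene and library, without normalization. The strand setting is not given in the sources used here, 5 tally lines per file that name no gene stayed out of library sizes (reads outside genes made up 18.78% to 26.81% of a clone's file and 19.7% of the Het file), and the table of the whole series was not used.

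Counts were scaled with TMM factors over all 18 libraries (edgeR 4.0.16, R 4.3.3), and log2 values used a pseudocount of 0.25 CPM. edgeR's quasi-likelihood test (filterByExpr, Benjamini-Hochberg over all genes tested, two-sided, threshold 0.05) compared Het with the clones and fitted slopes over the 17 clones, with no block or covariate; its scripts were tested on simulated data. Slope SEs come from its F statistic. Permutation p-values of r and rho are two-sided, from 100000 resamples, and unadjusted. DESeq2 1.42.0, limma 3.58.1, other scalings, no filter and left-out clones were alternatives. Python 3.11.15 and scipy 1.17.1 did the rest. Depth of 11484812 to 18458157 reads on genes per clone puts the limit of a count of 0 (3 reads) at 0.170 to 0.273 TMM-scaled CPM, and intervals (95%) cover counting error only. Named genes are the family, the 6 pathway genes with the largest SD among those with a mean above 1 CPM, the 2 nearest patterns per gene (1 is not reported here), and ACAN and MKI67. Other pathway and marker genes were named after their values were seen, and so was the split of clones at gaps in ACAN, MKI67 or IGFBP7. Members and lists were chosen with earlier results of these data known. H19, MTOR, gene coordinates, lengths and sequences were not analysed here.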

Additional observations from a re-analysis of the deposited data

How the results depend on the processing

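Against the 17 clones, Het had 145 genes called by edgeR, 87 by DESeq2, 216 by limma-voom and 137 to 155 with each clone left out. Family genes called were 1 by limma-voom and 0 in the others, and with limma-voom IGFBP5, at log2 -0.43 by edgeR and not called, turned to 0.10 (adjusted p = 0.989). The number of family pairs called both ways was 4, and 3 to 5 under every alternative and with each clone left out; IGFBP2 with IGFBP4 and with IGFBP7 were called in each of these fits. Pairs with a permutation p under 0.05 numbered 10, 4 with CPM by total count and 6 to 11 with each clone left out (6 without clone N). Family genes called with ACAN were 2, 1 with the share of reads outside genes as a covariate, and 1 to 2 with each clone left out; IGFBP3 was called in every one of these fits. With MKI67 they were 3, and 2 to 4 with each clone left out. Of 9 family genes, 8 had an SD above the median gene, and 7 with a pseudocount of 1 CPM.

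Counts over all genes moved more. With CPM by total count the slope fits called 1482 genes for IGF2R, 431 for IGFBP2, 1084 for IGFBP7, 44 for IGFBP3, 133 for IGFBP6 and 0 for IGF1R. DESeq2 called 70 for IGF1R, 1960 for IGFBP2, 492 for IGFBP3, 317 for IGFBP6 and 907 for ACAN (474 by edgeR). limma-voom and DESeq2 size factors called 28 and 31 for IGFBP6. With no filter 151 were called for IGFBP3 and 1 for IGF1R, and with Het included 21 for IGFBP3. With the covariate they were 466 for IGFBP2, 528 for IGFBP7, 2261 for IGFBP5, 151 for ACAN and 0 for IGFBP3 and IGF1R. With each clone left out they ran from 0 to 409 for IGFBP3, 23 to 1292 for IGFBP5, 0 to 171 for IGFBP6, 393 to 1737 for IGFBP2, 1425 to 2845 for IGF2R, 957 to 2702 for IGFBP7 and 192 to 1014 for ACAN, lowest without clone N (O for IGFBP2 and IGFBP7, G for IGF2R). The causes were not tested. No paired analysis was possible because the labels give no shared replicate numbers to clones and Het.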
